A study of Mus musculus with 6 samples.

Results

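Decorin (Dcn), lumican (Lum), Smoc2, Abi3bp, Col3a1, Col1a1, Col1a2, Col6a2, Igfbp6 and Serpinf1 are 10 genes for secreted matrix proteins that fibroblasts of peripheral nerve are known to make, and they are 10 of the 32285 genes counted in these cells. They were selected on their measured UMI counts by cell name, because they lead the cells that the authors named nmSC, so their levels by cell name are given below as a description and without a test. The cells came from sciatic nerves of C57BL6/J mice aged 23 weeks, fed either SD (3 libraries) or HFD (2 libraries), abbreviations commonly used for a standard and a high fat diet that the labels do not spell out. All of them had passed through magnetic beads carrying an antibody to O4, a surface antigen of Schwann and oligodendrocyte lineage cells, and were then profiled one by one on the 10x Genomics platform. HFD replicate 3 was not analysed here, and the composition and duration of the diets were not stated. The labels give neither the number of mice behind a library nor whether libraries stem from different mice, and p-values therefore describe library-to-library spread that may be technical.

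Fibroblasts of a nerve lie between the axon and Schwann cell units (endoneurium), around each fascicle as a layered sheath (perineurium) and around the whole nerve (epineurium). They secrete fibrillar collagens, whose triple helices assemble into fibrils, and small leucine-rich proteoglycans such as decorin and lumican, which bind those fibrils and set their thickness and spacing. Schwann cells make their own basement membrane, and macrophages clear debris, so neither is known as a main source of decorin.

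The 364 cells held 1155624 UMIs, counts of distinct RNA molecules, and between 37744 and 349450 of them fell to a library. The authors' names divided the cells into 143 Macrophages, 92 mySC, 60 SCP, 45 repairSC and 24 nmSC, and the labels do not spell these names out. SD replicate 3 stood apart with 40 cells and 0 named nmSC, which allows a share of up to 7.5%. The other libraries held 5 such cells in SD replicate 1, 8 in SD replicate 2, 4 in HFD replicate 1 and 7 in HFD replicate 2. No barcode was shared between libraries (0 of 364 cells).

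Nearly all RNA of the proteoglycan and adhesive members sat in the 24 cells named nmSC, which held 93981 of the UMIs. Of 2133 Dcn UMIs, 2121 (99.4%) lay there, as did 99.1% of those of Lum, 98.9% of those of Smoc2 (a calcium-binding matricellular protein), 99.3% of those of Abi3bp (a matrix protein that binds collagen) and 98.2% of those of Col6a2 (a chain of the microfibrillar collagen VI). The fibril-forming chains Col3a1 and Col1a1 followed with 94.9% and 92.2%. Igfbp6, which binds insulin-like growth factor 2, had 76.5% of its UMIs there. Col1a2, the partner chain of Col1a1 in type I collagen, had 55.2%, and Serpinf1, which encodes pigment epithelium-derived factor, had 34.3%.

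**Figure D1:**
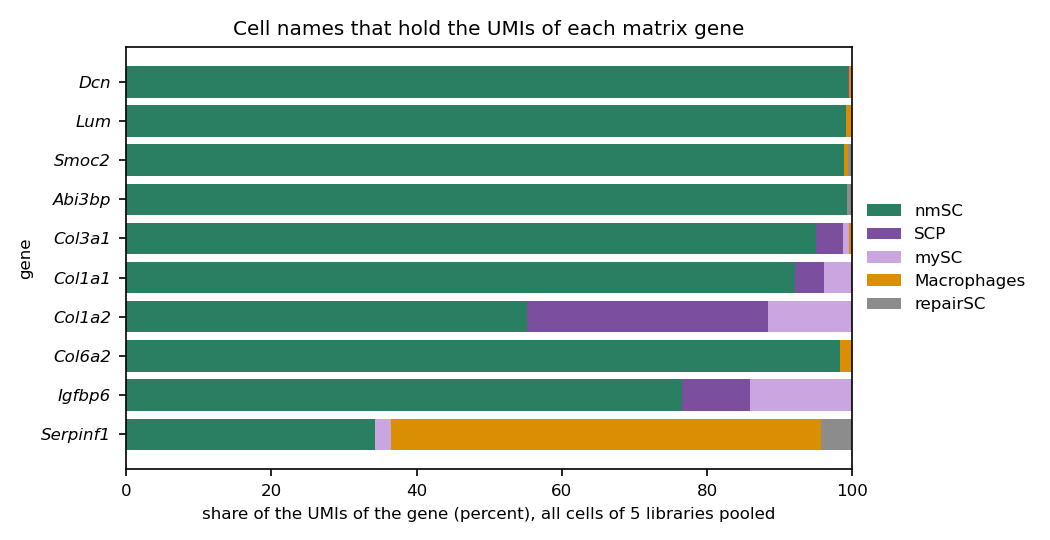
Share of the UMIs of each gene (x axis, percent of the gene's UMIs over 364 cells of 5 libraries pooled) by the name the authors gave the cell (colours). The bars of 7 genes are at least 92.2% nmSC, while Igfbp6 and Col1a2 extend into SCP and mySC and 59.1% of the Serpinf1 bar is Macrophages.

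Summed over the 10 genes, the cells named nmSC held 3421 UMIs, or 36401 CPM (their UMIs scaled to counts per 1e6 UMIs of those cells). The 4 libraries with such cells differed widely, at 26404 CPM in SD replicate 1, 40967 in SD replicate 2, 64760 in HFD replicate 1 and 16155 in HFD replicate 2. Without the 4 cells with endothelial markers described below, SD replicate 1 was at 39173 CPM and HFD replicate 2 at 26055, and the others did not change. The lowest library, at 16155 CPM, was far above every other cell name, whose pooled sums were 553 CPM in SCP, 386 in mySC, 226 in repairSC and 161 in Macrophages. The means over libraries were 516 ± 188 CPM in SCP, 425 ± 228 in mySC, 466 ± 545 in repairSC and 149 ± 39.3 in Macrophages (SD, n = 5). Every mySC library (lowest 228 CPM) was above every Macrophage library (highest 206 CPM), and SCP was above Macrophages within each of the 5 libraries, while SCP and mySC overlapped. In SD replicate 3 the values come from 1 UMI in mySC, 1 in Macrophages and 4 in SCP, so the order there rests on very few counts. The repairSC mean rests on SD replicate 2, at 1304 CPM from 1 UMI of 767, and was 205 CPM without cells under 500 UMIs (n = 4).

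Within the cells named nmSC the matrix genes were not spread over every cell. Of the 24 cells, 20 carried at least 1 of the 10 genes and 4 carried none. The 4 cells without them were not shallow: the one in SD replicate 1 had 6247 UMIs, and the 3 in HFD replicate 2 had 7279, 2022 and 1965. They held 281 UMIs of a 15-gene endothelial marker list, among them 49 of Cldn5 and 41 of Cdh5, which encode junction proteins of blood vessel endothelium, and 24 of Flt1, a receptor for vascular growth factors. They also held 408 UMIs of Fabp4, a lipid carrier of capillary endothelium and adipocytes, and 20 of the pan-fibroblast list. The other 20 cells had 4 UMIs of the endothelial list, with at most 1 in a cell. All 24 share the authors' name, so 4 of the cells counted as nmSC carried endothelial markers and no matrix gene.

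**Figure D2:**
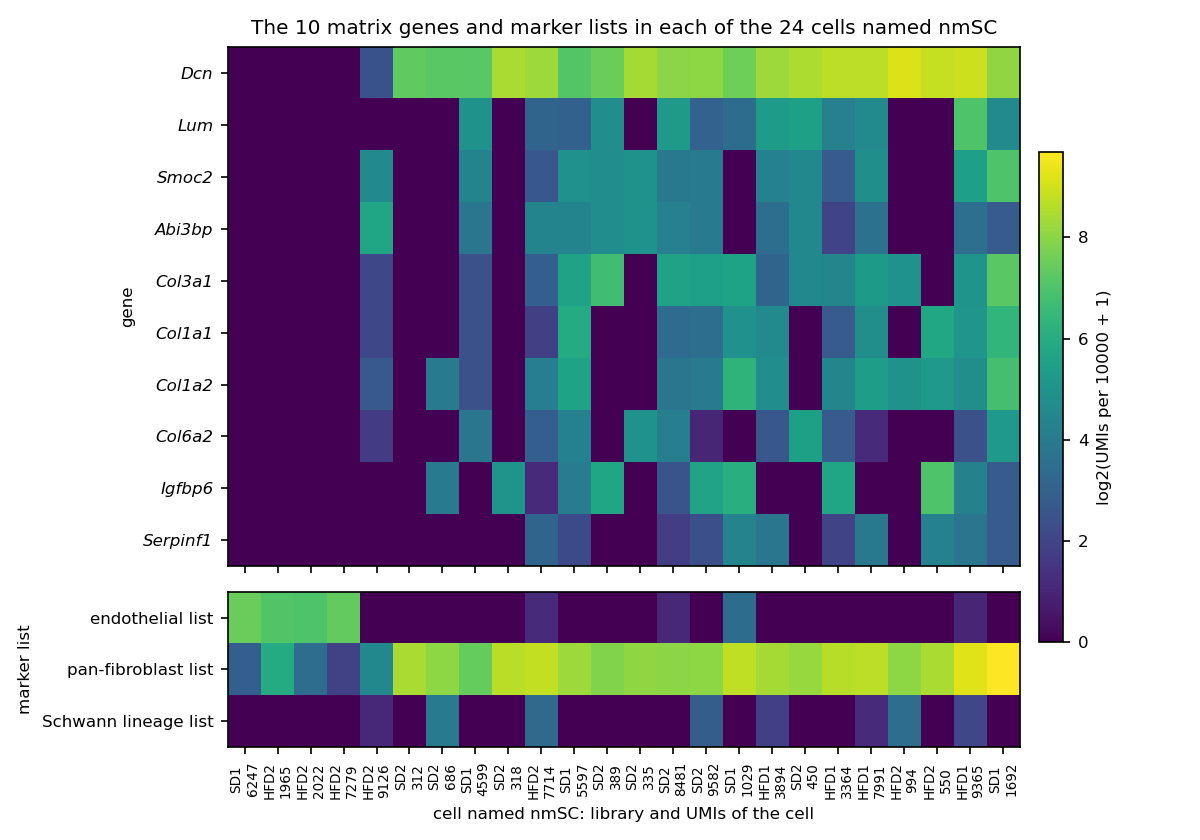
Each column is 1 of the 24 cells named nmSC, labelled with its library and its UMIs, and colour gives log2(UMIs per 10000 + 1) of each gene (upper panel) or marker list (lower panel). The 4 leftmost cells have no UMI of any of the 10 genes and the highest endothelial list values, and Dcn is above 0 in the other 20.

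In those 20 cells Dcn was detected without exception, with 4 to 467 UMIs and a median of 52. They carried 1 to 10 of the 10 genes, with a median of 7.5, and 7 cells carried all 10. The number carried followed depth: the 15 cells with at least 500 UMIs had a median of 9 genes and the 5 below that, all in SD replicate 2, had a median of 4. The summed share did not, with a median of 4.37% of the cell's UMIs in the deeper cells and 4.11% in the shallower ones. Col3a1 and Col1a2 were seen in 15 of the 20 cells each, Smoc2 and Abi3bp in 14 each, Lum, Col1a1 and Col6a2 in 13 each, Igfbp6 in 12 and Serpinf1 in 11.

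The balance of the genes differed from cell to cell. Dcn made up a median of 67.0% of a cell's matrix gene UMIs, and its lowest share was 4.71%, in a HFD replicate 2 cell of 9126 UMIs. That cell held 4 Dcn UMIs beside 46 of Abi3bp and 22 of Smoc2, and it was the one cell of the 20 with more Abi3bp than Dcn. It also had 76 UMIs of the microfibril gene Fbn1, 35 of Tenm2, a gene on the perineurial list, and 0 of Gsn, an actin regulator that 19 of the 20 cells carried. Lum was concentrated in a HFD replicate 1 cell of 9365 UMIs, which held 120 of its 229 UMIs in these cells. Igfbp6 was likewise uneven, since a SD replicate 2 cell of 9582 UMIs held 47 of 114. Col3a1, Col1a1 and Col1a2 had no such single source, and their highest cells held 41, 34 and 33 UMIs.

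The name of these cells was set against cell type markers. The Schwann lineage transcription factor Sox10 and the neuregulin receptor Erbb3 had 0 UMIs in all 24 cells, where 0 of 93981 allows up to 31.9 CPM, against 393 CPM of Sox10 and 196 CPM of Erbb3 in SCP. The list as a whole had 21 UMIs in 8 of the 20 cells, 13 of Cdh19 and 8 of S100b. The 14-gene nonmyelinating Schwann list had 1169 UMIs, but 1110 of them were Apod, which fibroblasts also express. Matn2 had 29, in 8 of the 20 cells, and the ion channel gene Scn7a had 21, in 7. Both were highest in nmSC, Matn2 at 309 CPM against 60.1 in SCP and Scn7a at 223 CPM against 127 in mySC. Of the 14 genes, 6 had a UMI in nmSC and 4 were highest there. Pan-fibroblast markers were present in each of the 20 cells, with 9 to 559 UMIs and a median of 60.5. Of their 2534 UMIs, 1110 were the same Apod UMIs and 784 were Gsn. Of the 13 genes on that list, 9 were highest in nmSC. Vim was at 1170 CPM in nmSC against 1528 in mySC, and Pdgfrb at 31.9 CPM against 56.1 in SCP. Pdgfra, the growth factor receptor that marks fibroblasts, was found in 12 of the 20 cells, and all 60 of its UMIs in the 364 cells lay there.

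Markers of more than 1 fibroblast layer were present. Of the endoneurial list, Osr2 was in 9 of the 20 cells and Sox9 in 6, both transcription factors, while the secreted Wnt inhibitor Wif1 had 0 UMIs in any cell. Abca9 and Etv1 from the same list were also found in Macrophages, at 182 and 43.0 CPM against 404 and 223 CPM in nmSC. Of the epineurial list, Fbn1 was in 13 cells, Mfap5 and Ly6a in 8 each, Clec3b in 7, and Dpt, Pi16 and Sfrp2 in 1 each, while Pcolce2, Sfrp4 and Comp had 0 UMIs in any cell. Mfap5 was as high in SCP (337 CPM) as in nmSC (319 CPM). The 12-gene perineurial list had 76 UMIs in 11 of the 20 cells, most of them from Tenm2 (60 UMIs in 7 cells) and Ntn4 (14 in 6). Its members Itgb4 and Cldn1 had 0 UMIs in nmSC, and Msln and Krt19 had 0 in any cell. Sox9 or Osr2 was found in 9 cells, Clec3b, Dpt, Pi16 or Sfrp2 in 7, and both sets in 4. The 8 cells with neither set included 4 of the 5 cells under 500 UMIs. By these markers the 20 cells were fibroblast-like, and the genes are called fibroblast matrix genes here without assigning them to the endoneurium.

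Col1a2 was the member with the most RNA in the cells named SCP. It had 108 UMIs there (433 CPM, exact 95% Poisson interval 355 to 523), and 42 of 60 SCP cells carried it (70.0%, exact 95% Clopper-Pearson interval 56.8 to 81.2%). These intervals and all floors cover counting error only. By library the SCP level was 448 CPM in SD replicate 1, 347 in SD replicate 2, 48.2 in SD replicate 3, 601 in HFD replicate 1 and 530 in HFD replicate 2. SD replicate 3, the shallowest library, was the lowest. In mySC 23 of 92 cells carried it (25.0%, 210 CPM). In Macrophages it had 0 UMIs of 582071, which allows up to 5.15 CPM, so the SCP level was at least 84.0-fold higher (a floor of 3 counts over the group).

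Across names the Col1a2 level was 2002 ± 1153 CPM in nmSC (SD, n = 4), 395 ± 216 in SCP and 227 ± 247 in mySC (SD, n = 5). The lowest nmSC library (776 CPM) was above the highest SCP library (601) and the highest mySC library (619), while SCP and mySC overlapped. The share of cells with a UMI in nmSC, 62.5%, lay below that in SCP against the order of the CPM, and the median depths were 2693 and 4230 UMIs per cell. After each cell was thinned to 500 UMIs, the shares were 10 of 19 nmSC cells (52.6%), 6 of 58 SCP cells (10.3%), 8 of 59 mySC cells (13.6%) and 0 of 115 Macrophages. In the draws at 300 and 1000 UMIs the nmSC shares were 41.7% and 68.8%, the SCP shares 15.5% and 26.3% and the Macrophage shares 0%. The mySC shares were 10.7% and 24.1%, so mySC was above SCP only in the draw at 500 UMIs.

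Dcn gave a different picture in the same SCP cells, with 1 UMI in 60 cells (1.67% of cells). The UMIs of Dcn and Col1a2 were thus 2121 and 180 in nmSC but 1 and 108 in SCP, so Col1a2 in SCP did not come in the ratio to Dcn seen in nmSC. Lum, Smoc2, Abi3bp and Col6a2 had 0 UMIs of 249554 in SCP, which allows up to 12.0 CPM each. Col3a1 had 9 UMIs in 5 SCP cells, 5 of them in a single cell, and Col1a1 had 6 in 4 cells. Igfbp6 had 14 UMIs in 8 SCP cells (13.3%) and 21 in 11 mySC cells (12.0%), and 0 in Macrophages. Its mean level was 157 ± 104 CPM in mySC and 59.6 ± 57.8 CPM in SCP (SD, n = 5), which overlapped, and 1304 ± 1022 CPM in nmSC (n = 4).

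Cells of other names that carried 3 or more of the genes were few. There were 4 mySC cells and 1 SCP cell, against 18 of the 24 nmSC cells. Each of the 4 mySC cells held Col1a1, Col1a2 and Igfbp6 and no other member. The SCP cell held the same 3 genes and Col3a1. None of these 5 cells had a Dcn UMI, and their summed matrix gene UMIs were 3 to 9.

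Serpinf1 was the member with the most RNA in Macrophages. It had 81 UMIs there (139 CPM, exact Poisson interval 111 to 173) against 47 in nmSC, and 39 of 143 Macrophages carried it (27.3%, exact interval 20.2 to 35.3%). Its level in Macrophages was 90.6 CPM in SD replicate 1, 130 in SD replicate 2 and 121 in SD replicate 3, the last from 1 UMI. It was 183 in HFD replicate 1 and 124 in HFD replicate 2, so every library contributed. The mean was 130 ± 33.6 CPM (SD, n = 5), and each of the 4 nmSC libraries was higher, the lowest at 236 CPM. In SCP it had 0 UMIs, so Macrophages were at least 11.6-fold higher than the SCP floor of 12.0 CPM, counted over the group. A single repairSC cell held all 6 UMIs found under that name. After thinning to 500 UMIs, 10 of 115 Macrophages (8.70%), 8 of 19 nmSC cells (42.1%) and 0 of 58 SCP cells carried it. At 300 UMIs these were 1 of 129 Macrophages (0.775%) and 2 of 24 nmSC cells (8.33%), and at 1000 UMIs 11 of 75 (14.7%) and 7 of 16 (43.8%). The shares thus differed between settings. Each is a single draw on a different set of cells, so depth, draw and cells kept cannot be told apart. The median depth of Macrophages was 1064 UMIs.

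The other members were close to 0 in Macrophages. Dcn had 8 UMIs in 4 of 143 cells (2.80%), and 4 of the 8 were in a single HFD replicate 2 cell. Lum had 2 UMIs, Smoc2, Col3a1 and Col6a2 had 1 each, and Abi3bp, Col1a1, Col1a2 and Igfbp6 had 0. No expression is read from these counts or from the single Dcn UMI in SCP, and their source was not tested. The Serpinf1 share in Macrophages and the Col1a2 share in SCP were above these shares, and each gene was at 0 in the other of these 2 cell names.

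**Figure D3:**
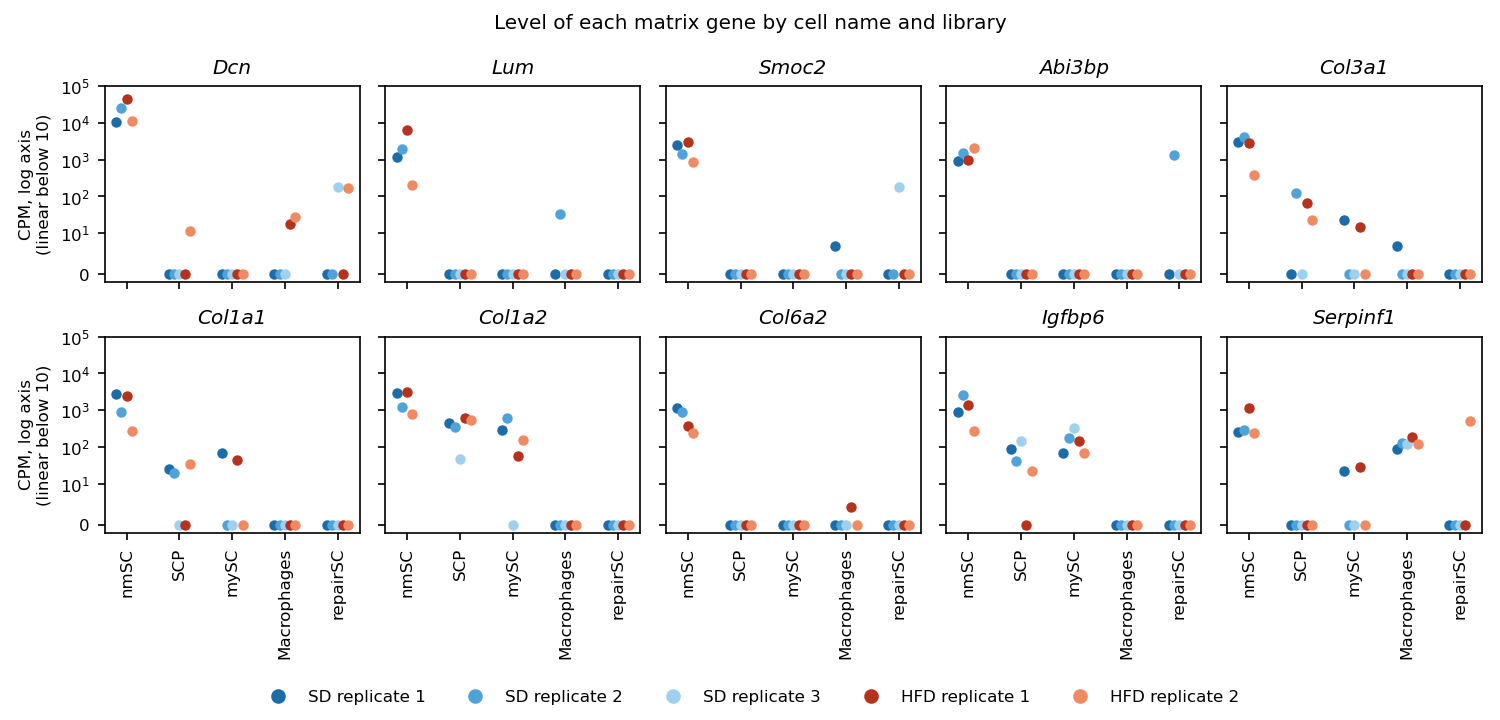
CPM (y axis, log scale with a linear part below 10) of each gene by cell name (x axis), where each point is 1 library (colour). Col1a2 points of SCP lie between 48.2 and 601 CPM and Serpinf1 points of Macrophages between 90.6 and 183 CPM, while the Dcn points of both names are at 27.6 CPM or below.

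Positions are from the mouse build mm10 (GRCm38.p6). Dcn (chr10:97479500-97518163) and Lum (chr10:97565501-97572703) are neighbours, 47337 bases apart. Col6a2 lies elsewhere on that chromosome (chr10:76595756-76623630). Col1a1 (chr11:94936224-94953042) and Serpinf1 (chr11:75410029-75422623) share chromosome 11. Col3a1 is at chr1:45311538-45349706, Col1a2 at chr6:4505618-4541543, Igfbp6 at chr15:102144186-102149512, Abi3bp at chr16:56477801-56690135 and Smoc2 at chr17:14279490-14404790. RefSeq promoter entries were matched for 5 of the 10 genes. The coordinates of the genes are those of RefSeq. Shown, for the gene with SCP RNA, the gene with Macrophage RNA and, for contrast, the fibrillar collagen Col3a1, are the nearest 120 bases upstream of the RefSeq start that are in no exon of the gene in the GENCODE annotation. For Col1a2 and Serpinf1 this window does not touch the RefSeq start, because GENCODE exons begin before it, and for Col1a2 it lies in an intron of a longer GENCODE transcript. They lie at chr6:4505373-4505492 on the plus strand (Col1a2), chr11:75422702-75422821 on the minus strand (Serpinf1) and chr1:45311418-45311537 on the plus strand (Col3a1). Capitals mark 3 motifs searched on both strands, of which no matches overlap. The TATA box was searched as TATAAA. The CCAAT box was searched by those 5 letters. The GC box was searched as GGGCGG.
Col1a2: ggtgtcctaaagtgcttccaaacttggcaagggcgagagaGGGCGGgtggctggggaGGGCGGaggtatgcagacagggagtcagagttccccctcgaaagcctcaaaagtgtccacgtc
Serpinf1: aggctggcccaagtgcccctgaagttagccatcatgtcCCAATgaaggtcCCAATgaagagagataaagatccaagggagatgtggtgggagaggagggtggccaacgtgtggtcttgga
Col3a1: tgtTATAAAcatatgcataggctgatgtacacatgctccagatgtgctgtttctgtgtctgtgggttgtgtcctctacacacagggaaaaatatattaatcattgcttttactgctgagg
The windows differ in which motif they hold: Col1a2 has 2 GC box matches, Serpinf1 has 2 CCAAT box matches and Col3a1 has 1 TATA box match. In 32851 RefSeq promoters, over the 120 bases directly before the start, 26.5% held the GC box, 21.3% the CCAAT box and 6.34% the TATA box. A match describes the letters only.

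Genes whose pattern over cells was most like that of the 10 were found by Pearson correlation with the mean of the 10, on log2(UMIs per 10000 + 1), over the 257 cells with at least 500 UMIs and among 6895 genes. These cells share libraries and differ in depth, so the values are a description. Col6a1, the partner chain of Col6a2 in collagen VI, came first with r = 0.89, and all 48 of its UMIs lay in nmSC. It was followed by the chemokine Ccl11 (0.87), the gelatinase Mmp2 (0.86), the elastic fibre protein Fbln2 (0.84) and the basement membrane zone collagen Col15a1 (0.84). The next 5 were Thbs4 and C1s1 (0.80 each), Gpc3 (0.79), Abca6 (0.78) and Islr (0.77). Among the members, the value was highest for Dcn (0.93) and lowest for Igfbp6 (0.66) and Serpinf1 (0.56). Each member is itself part of the mean, which raises its value, so member values cannot be set beside those of the other genes.

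Related matrix genes were read from lists rather than from these correlations. Beside Dcn and Lum, the proteoglycans Prelp (24 of 25 UMIs) and Bgn (14 of 16) lay mainly in nmSC, whereas Ogn had 38 UMIs in nmSC, 193 in SCP and 150 in mySC. The type V collagen chains, which nucleate fibrils of type I collagen, had RNA in both: Col5a1 had 27 UMIs in nmSC and 26 in SCP, Col5a2 had 26 and 29, and Col5a3 had 15 and 34. The collagen chaperone Serpinh1 had 51 of its 69 UMIs in nmSC. Sparc, which binds collagen, was at similar levels in nmSC, SCP and mySC, with 2330, 1919 and 2251 CPM. Igfbp5 had 218 of 244 UMIs in nmSC, so it was more concentrated there than its relative Igfbp6.

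The diet comparison asked whether the level of each gene within the cells named nmSC differed between SD and HFD. No gene passed the test. Of the 10 genes, 9 passed the filter on low counts (Serpinf1 did not), and 3 were higher and 6 lower in HFD in the fit. With edgeR's quasi-likelihood test and Benjamini-Hochberg adjustment over 327 genes, 0 of the 9 were called at 0.05, against 0% of all genes tested. At an unadjusted p under 0.05 there was 1 member (Col6a2), against 1.22% of genes, and DESeq2 called 0. Standard errors ran from 0.66 to 1.22 on the log2 scale, with 2 libraries per diet. The median log2 fold change was -0.70 over these 9 and -0.06 over all genes tested.

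Col6a2 and Col3a1 were the collagen genes with the lowest log2 fold changes. Col6a2 was at 1148 CPM in SD replicate 1 and 876 in SD replicate 2, and at 366 in HFD replicate 1 and 236 in HFD replicate 2, so the diets did not overlap. Its log2 fold change was -2.06 ± 0.74 (SE), with an edgeR adjusted p of 1.00. Col3a1 was at 3027 and 4184 CPM in the SD libraries and at 2803 and 371 in the HFD libraries, which also did not overlap (log2 fold change -1.72 ± 0.80, edgeR adjusted p 1.00). HFD replicate 2 was by far the lower of the 2 HFD libraries. Without it the Col3a1 log2 fold change was -0.71. Igfbp6 was at 887 and 2676 CPM in SD and at 1381 and 270 in HFD, and 1 cell held 47 of its 55 UMIs in SD replicate 2. On the CPM of the fit it was the third gene without overlap (log2 fold change -1.51 ± 0.73), but over all UMIs the diets overlapped, and without SD replicate 2 it was -0.47. Those 3 genes without overlap among 9 stand against 22.6% of all genes tested.

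The type I collagen chains overlapped between diets. Col1a1 was at 2766 and 876 CPM in SD and 2519 and 270 in HFD, and Col1a2 at 2922 and 1265 in SD and 3047 and 776 in HFD. Their log2 fold changes were -1.08 ± 1.05 and -0.70 ± 0.77. Both turned positive without SD replicate 1, at 0.64 and 0.61. The 2 chains thus ranked the 4 libraries almost alike, with HFD replicate 2 lowest in each. Without the 4 cells with endothelial markers, Col1a2 was nearly level in HFD replicate 2 (1251 CPM, 23 UMIs) and SD replicate 2 (1265 CPM, 26 UMIs). Col1a1 was still lower in HFD replicate 2, at 435 CPM against 876.

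The proteoglycans and adhesive proteins did not separate the diets either. Dcn was at 10801 CPM in SD replicate 1, 25884 in SD replicate 2, 43065 in HFD replicate 1 and 10860 in HFD replicate 2 (log2 fold change 0.16 ± 0.72). Lum was at 1200 and 1946 CPM in SD and 6500 and 202 in HFD, so the HFD libraries were the highest and the lowest (0.46 ± 1.22). In HFD replicate 1, 120 of the 160 Lum UMIs lay in 1 cell. Without HFD replicate 1 the values were -0.53 for Dcn and -2.75 for Lum. Abi3bp ran from 939 to 2057 CPM (0.26 ± 0.76) and Smoc2 from 877 to 2925 CPM (-0.53 ± 0.66), with HFD libraries at both ends for Smoc2. Without the 4 cells with endothelial markers, Smoc2 was at 3639 and 1411 CPM in SD and 2925 and 1414 in HFD. SD libraries were then at both ends. In HFD replicate 2, the cell of 9126 UMIs held 46 of the 61 Abi3bp UMIs and 22 of the 26 Smoc2 UMIs.

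HFD replicate 2 held 3 of the 4 cells with endothelial markers and SD replicate 1 held the other. Without these 4 cells, Dcn was at 16025 CPM in SD replicate 1 and 17515 in HFD replicate 2, and Col3a1 at 4490 and 598. The log2 fold changes of Col6a2, Col3a1 and Igfbp6 were then -1.86, -1.70 and -1.39, close to those with all 24 cells. Unnamed gene models (Gm numbers and Rik names) were left out of the following rankings by p. Of the 4 genes of lowest p that were lower in HFD, 3 were Col6a2, Col3a1 and Igfbp6, and the other was Mir99ahg (log2 fold change -1.81 ± 0.82). The 4 genes of lowest p that were higher were the immediate early genes Nr4a1 (3.52 ± 0.98), Btg2 (2.45 ± 0.79), Junb (1.66 ± 0.62) and Egr1 (2.14 ± 0.83), which respond quickly to stress and to tissue dissociation. None passed the test, with edgeR adjusted p of 1.00. Their part in the values of the matrix genes was not tested. Project 1 is the project number of 3 of the libraries in the deposited key. There, HFD replicate 1 differed from the mean of the SD libraries by -2.23 for Col6a2, -1.06 for Col3a1 and 0.60 for Dcn on the log2 scale. These values are on the TMM-normalized CPM of the fit. On that scale Col3a1 was at 8725 and 8757 in SD and 4202 in HFD replicate 1. Over all UMIs these were 3027, 4184 and 2803 CPM, which lie closer together. Project 2 had no SD library with such cells.

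**Figure D4:**
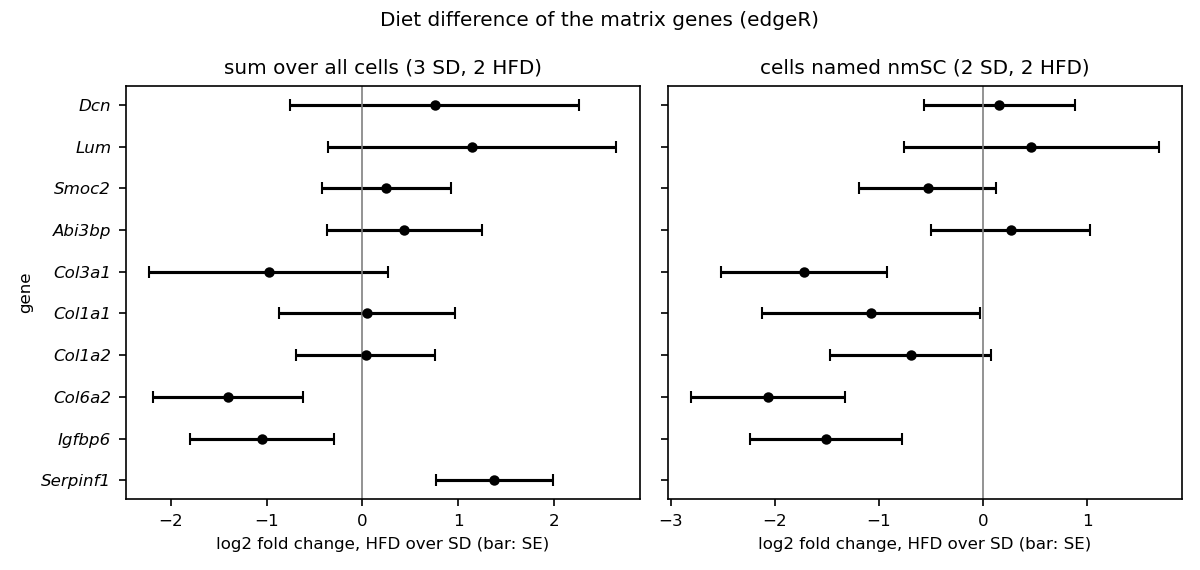
Log2 fold change of each gene, HFD over SD (x axis), with its standard error as a bar, from the edgeR fits on UMIs summed over all cells (left, 3 SD and 2 HFD libraries) and over the cells named nmSC (right, 2 and 2). Every edgeR adjusted p is above 0.9, and the right panel has no point for Serpinf1, which did not pass the filter there.

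Related matrix genes in the same fit were mostly lower in HFD and none was called, beside 56.0% of all 327 genes that were lower. All 3 tested nonfibrillar collagens were lower, with Col15a1 at -0.98 ± 0.54 and Col6a1 at -0.56 ± 0.78 beside Col6a2. Of 5 tested basement membrane genes 1 was higher (Lama2, 0.32 ± 0.92) and 4 lower, among them Lamc1 (-0.55 ± 0.84). Of 5 pan-fibroblast markers 1 was higher (Apod, 0.69 ± 0.98) and 4 lower, among them Pdgfra (-1.06 ± 0.70) and Gsn (-0.50 ± 0.59). Both tested procollagen modifying genes, Ppib and Serpinh1, were lower, at -0.42 ± 0.79 and -0.57 ± 0.93. Each of these values is a log2 fold change ± SE, and each lies within 2 standard errors of 0.

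Within SCP, Col1a2 was the 1 member that passed the filter. Its levels by library, given above, placed both HFD libraries above all 3 SD libraries, and 18.5% of the 1019 genes tested did not overlap in 1 direction or the other. The log2 fold change was 0.78 ± 0.63 and edgeR's adjusted p was 1.00. edgeR called 0% of genes in that fit (0 at the threshold, 1.57% at an unadjusted p under 0.05, Col1a2 not among them), and DESeq2 did not call Col1a2 (adjusted p 1.00). Without SD replicate 3 the value was 0.39. Within Macrophages, Serpinf1 overlapped between diets, at 0.53 ± 0.62 with an edgeR adjusted p of 1.00, in a fit that called 0.0434% of 2302 genes, with 3.82% at an unadjusted p under 0.05 and 19.8% without overlap.

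Over the sum of all cells of a library, 7 of the 10 genes were higher and 3 lower in HFD. In such a sum, fewer cells of a type and less RNA per cell cannot be told apart, and the cells named nmSC gave 0 to 13.3% of a library's UMIs. edgeR called 0 of the 10 (0.0907% of 5510 genes called), with 1 at an unadjusted p under 0.05 (4.39% of genes), and DESeq2 also called 0. That gene was Serpinf1, at 72.7, 97.8 and 26.2 CPM in SD replicates 1 to 3 and 272 and 109 in HFD replicates 1 and 2 (TMM-normalized CPM from the fit). It was the 1 gene of the 10 whose libraries did not overlap, against 23.7% of genes. Its log2 fold change was 1.38 ± 0.61, with an edgeR p of 0.0458 and an adjusted p of 0.943. HFD was higher in both projects, by 1.66 and 2.01 on the log2 scale, and without HFD replicate 1 the value was 0.61. The value in project 2 sets HFD replicate 2 against SD replicate 3, whose level rests on 1 Serpinf1 UMI. In HFD replicate 2, the Serpinf1 UMIs were 18 in Macrophages, 7 in nmSC and 6 in 1 repairSC cell. At the same scaling, the level of HFD replicate 2 without that cell would lie below the 97.8 CPM of SD replicate 2. The diets would then overlap, so the lack of overlap rests on that cell. The fit was not repeated without it. Macrophages made up 29 of 80, 24 of 81 and 8 of 40 cells in the SD libraries and 40 of 57 and 42 of 106 in the HFD libraries, and their part in the Serpinf1 difference was not tested.

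Dcn over all cells was at 793, 3717 and 26.2 CPM in SD and 4026 and 1154 in HFD, so the diets overlapped (log2 fold change 0.76 ± 1.51). The value of SD replicate 3 rests on 1 Dcn UMI, in a library with no cell named nmSC. The lower genes were Col6a2 (-1.40 ± 0.78), Igfbp6 (-1.05 ± 0.75) and Col3a1 (-0.98 ± 1.25). The type I collagen chains were near 0, at 0.05 ± 0.92 for Col1a1 and 0.03 ± 0.72 for Col1a2. The medians were 0.15 over the 10 genes and 0.02 over all genes tested.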

How the data were processed

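The authors deposited raw UMI counts per gene and cell, a table with the library, the cell name and the percent of mitochondrial UMIs of each cell, and a key of libraries, per the file headers. Reads were processed with Cell Ranger 3.1.0 on mm10, per the submitters' processing notes. Cell filters and doublet treatment before deposit were not stated, and no doublet caller was run. The deposited percent of mitochondrial UMIs was at most 4.97. Control libraries of the tables were taken as SD.

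The 10 genes and the marker and pathway lists were chosen with earlier results of these data known. UMIs were divided by all UMIs of the cells named (CPM). Library sums entered the robust quasi-likelihood test of edgeR 4.0.16 (R 4.3.3) after filterByExpr and TMM scaling, with Benjamini-Hochberg adjustment over all genes, in libraries with at least 3 cells of a name. The fits of SCP and Macrophages were added after seeing the data. CPM of fits cover the genes kept and can be higher. Intervals are at a confidence level of 0.95, and a count of 0 is given a floor of 3 counts. Thinned shares are single seeded draws. Cells were called endothelial-marker cells at 10 or more UMIs of that list and more of it than of the pan-fibroblast list, a choice made after seeing the data.

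Named were all 10 genes, up to 4 genes with most nmSC UMIs per list described, the 10 most alike genes (at least 20 UMIs in at least 5 cells) and the 4 genes of lowest p per direction of a fit. Unnamed gene models were left out of the alike genes and of the genes of lowest p. Not every gene so selected is reported. Other genes, single cells and marker combinations were named after their values were seen. On simulated counts, the share recovered for all cells (5548 genes) was 92.0% of genes raised and 78.0% of genes lowered by 4 on the log2 scale, and 15.2% and 8.51% at 2. For nmSC (367 genes) it was 92.0% and 95.9% at 4, and 25.0% and 45.2% at 2. In these simulations 186 of the 367 genes were unchanged, against 5355 of the 5548, and the dispersion was set by hand. A larger changed part eases the Benjamini-Hochberg adjustment. The nmSC shares may therefore exceed those of the real fit and cannot be set beside those for all cells. Alternatives included DESeq2 1.42.0, RLE scaling, no filter, a replicate block, the project number as a term and leaving out each library.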

Additional observations from a re-analysis of the deposited data

How the results depend on the processing

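None of the 10 genes changed its call under any alternative run, with adjusted p from 0.16 up. Within nmSC, Col6a2, Col3a1 and Igfbp6 were lower in HFD in all 14 alternatives, and over all cells Serpinf1 was higher in all 11. Leaving out 1 library moved Col6a2 from -2.17 to -1.41, Col3a1 from -3.10 to -0.71 and Igfbp6 from -2.46 to -0.47 (log2, nmSC), and Serpinf1 from 0.61 to 1.97 (all cells). Col1a2 in SCP kept its direction (0.39 to 1.24), as did Serpinf1 in Macrophages (0.23 to 0.78).

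Signs turned for other genes, and the cause was not tested. With the replicate block over all cells, Lum was at -0.050, Smoc2 at -0.22, Col1a1 at -0.63 and Col1a2 at -0.41; within nmSC, Lum was at -0.53 and Abi3bp at -0.0038. Without the filter, Smoc2 was at 0.16 and Col1a2 at 0.047 in nmSC. With the project number as a term, Abi3bp was at -1.03. Leaving out 1 library over all cells gave Dcn -0.37 to 2.55, Lum -2.67 to 2.36, Smoc2 -0.70 to 0.90, Abi3bp -0.23 to 1.61, Col3a1 -2.71 to 0.15, Col1a1 -1.77 to 0.90, Col1a2 -0.42 to 0.34 and Igfbp6 -2.20 to 0.0012. In nmSC it gave Dcn -0.53 to 0.96, Lum -2.75 to 1.71, Smoc2 -1.07 to 0.46, Abi3bp -0.68 to 0.90, Col1a1 -2.71 to 0.64 and Col1a2 -1.39 to 0.61, where the lone library of a diet is assumed to vary like the others.

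Over all cells 5 genes were called, none a member, against 9 with DESeq2, 47 without the filter, 64 with the replicate block, 57 with the project number as a term and 0 (without SD replicate 1) to 54 (without HFD replicate 2) with 1 library left out. In nmSC the count was 0 to 2 with 1 library left out (2 without HFD replicate 2) and 0 in the other alternatives. Replicate numbers give 2 pairs, which the labels do not say share anything. Deviations of same-numbered libraries correlated at 0.15 over all cells and -0.38 in nmSC. A crossed block in nmSC, added after seeing the data, called 0 genes (9 at an unadjusted p under 0.05), with Lum at -0.42 and Abi3bp at -0.028.

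Cells with at least 3 of the genes numbered 23, against 48 with at least 2 and 15 with at least 5. Of 30 shares of cells, 8 moved beyond their interval with at least 2 UMIs and 16, 13 and 11 after thinning to 300, 500 and 1000 UMIs. The summed level by cell name moved by less than 1 SD without mitochondrial UMIs or without cells under 500 UMIs, where repairSC went from 466 to 205 CPM.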
